A study of Mus musculus with 15 samples.

Results

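The S100 genes encode small calcium-binding proteins, and 8 of them were followed in a mouse model of acute myeloid leukaemia: S100a1, S100a4, S100a6, S100a8, S100a9, S100a10, S100a11 and S100a13. They were taken by name from a table of read counts per RefSeq transcript, and they are 8 of the 20453 genes that the table covers once its transcripts are assigned to gene symbols. RNA was sequenced from bone marrow of C57BL/6 mice. The leukaemias express human MLL-AF9, a fusion of a histone methyltransferase with a chromatin reader, whose cDNA was placed in A2Lox-cre embryonic stem cells by Cre recombination. The mice were double heterozygous females from chimeric lines crossed back to that strain, per the labels' protocols, and the sources used here do not name the promoter that drives the fusion or say whether wtGMP mice carried any of these alleles. The 3 MLL-AF9 groups were LTearly (4 libraries), LTlate (3) and BMTGMP (3), and wtGMP (4) served as the control. From what is known of the study, LTearly and LTlate are leukaemias begun in long-term haematopoietic stem cells, BMTGMP are leukaemias begun in granulocyte-macrophage progenitors, and wtGMP are wild-type granulocyte-macrophage progenitors. The labels do not spell out the 4 names, do not say which sorting gate each library came from, and give no dose or time of induction of the fusion. The count columns of every group, wtGMP included, carry the letters MllAF9_BMTs, which may stand for bone marrow transplants. Those column names do not say which groups were transplanted. All cells were first depleted with antibodies to lineage proteins, among them Cd11b and Gr-1. The titles of the MLL-AF9 libraries carry codes, such as M2grD2, whose meaning the labels do not give. The ending grD2 stands in 1 LTearly and 1 LTlate title, grLT3 in 1 of each and in that of a library placed in no group, and grV in 2 BMTGMP titles. Whether these mark separate mice or a shared source is not stated, and the tests therefore speak only to how much these libraries vary, which may in part be technical.

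S100 proteins bind calcium through paired EF-hand loops, change shape and then grip partner proteins. S100A8 and S100A9 form a heterodimer, calprotectin, that fills the cytosol of neutrophils and monocytes and acts outside the cell on TLR4 and RAGE. Most other members work on membranes and the cytoskeleton: S100A4 binds non-muscle myosin and is known for metastasis, S100A6 binds the protein encoded by Cacybp, and S100A10 and S100A11 bind annexins.

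Levels are CPM, the count of the gene divided by the counts kept on named genes in that library and scaled to a fixed total. With 1 transcript kept per gene, the counts of other transcripts are not in that sum. Those named-gene counts came to between 2469470 and 15093009 per library. Of 11 genes of the sorting gates and of early granules tested as a check of the labelled cell type, 6 fell in LTearly, 4 fell and 2 rose in LTlate, and 1 fell in BMTGMP against wtGMP. That 1 was Cd34, which averaged 32.2 CPM in LTearly, 113 in LTlate and 4.87 in BMTGMP, against 248 in wtGMP, although the labels' gate for granulocyte-macrophage progenitors is positive for Cd34. The genes that rose in LTlate were Fcgr2b and Fcgr3, which encode the Fc receptors of that gate. Kit and Mpo fell in LTearly and LTlate and were not called in BMTGMP, where each library lay below wtGMP. Kit averaged 50.8 CPM in LTearly, 22.4 in LTlate and 68.4 in BMTGMP, against 192 in wtGMP, and Mpo, an early granule enzyme, averaged 2045 CPM in LTearly, 383 in LTlate and 7847 in BMTGMP, against 17409 in wtGMP. Itgam, which encodes the depleted Cd11b, averaged 1328 CPM in LTearly, 1265 in LTlate and 482 in BMTGMP, against 56.1 in wtGMP.

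Against wtGMP, S100a8, S100a9 and S100a11 rose in each of the 3 MLL-AF9 groups by edgeR's quasi-likelihood test with Benjamini-Hochberg adjustment over 14542 genes. S100a4 and S100a6 rose in LTearly and LTlate and were not called in BMTGMP, and S100a10 fell in BMTGMP. In LTearly 5 of the 8 genes were called higher and 0 lower, where 11.1% of all genes tested were called higher, 8.93% lower and 20.1% in either direction. In LTlate 5 of 8 were called higher and 0 lower, where 7.53% of all genes were called higher, 3.25% lower and 10.8% in either direction. In BMTGMP 3 of 8 were called higher and 1 lower, where 4.41% of all genes were called higher, 2.17% lower and 6.58% in either direction. The called genes were also those whose groups did not overlap, 5 of 8 in LTearly, 5 in LTlate and 4 in BMTGMP, as was so for 21.9%, 26% and 19.2% of all genes tested. The median log2 fold change of the 8 genes was 2.13 in LTearly, 2.61 in LTlate and 0.55 in BMTGMP, beside 0.22, 0 and 0.07 over all genes tested. All 3 comparisons use the same 4 wtGMP libraries. These are bulk libraries, so more cells that carry a transcript and more transcript per cell cannot be told apart.

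**Figure D1:**
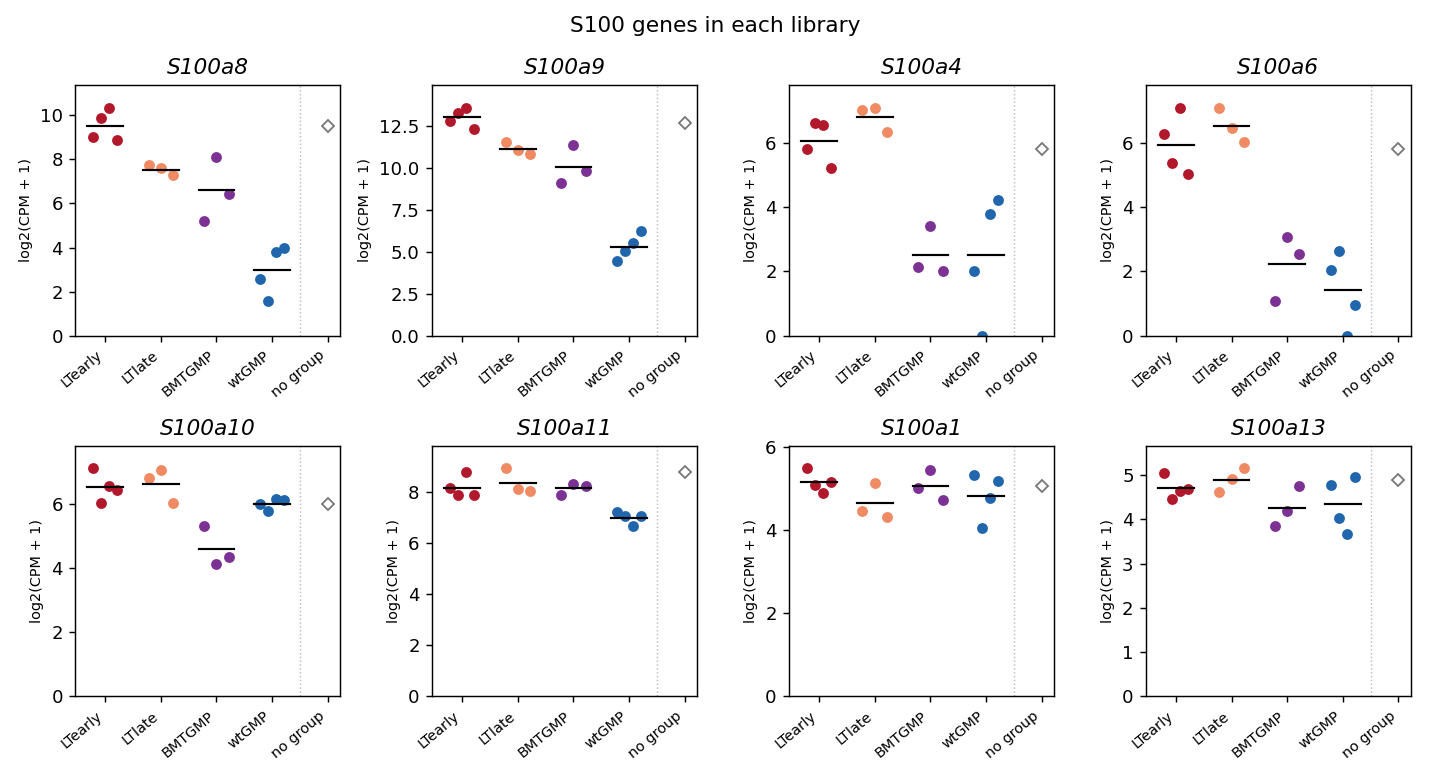
Level of each S100 gene in every library, as log2(CPM + 1), with LTearly, LTlate, BMTGMP and wtGMP from left to right and the library without a group at the far right (open diamond). Points are libraries and bars are group means of log2(CPM + 1). S100a8, S100a9 and S100a11 lie above wtGMP in all 10 MLL-AF9 libraries of the 3 groups, while S100a4 and S100a6 do so in LTearly and LTlate only.

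S100a9, the larger calprotectin subunit, was the most abundant member in every MLL-AF9 library. It stood at 7397, 10193, 12572 and 5306 CPM in LTearly, at 2989.9, 2172 and 1837 CPM in LTlate, at 549.5, 2666 and 911 CPM in BMTGMP, and at 20.6, 32.8, 45.9 and 73.9 CPM in wtGMP. Each MLL-AF9 group lay wholly above wtGMP, LTearly lay wholly above both other MLL-AF9 groups, and LTlate and BMTGMP overlapped because BMTGMP replicate 2 stood high. Among all genes ranked by count it took rank 1 in LTearly replicates 1, 2 and 3 and rank 6 in replicate 4, ranks 17 to 33 in LTlate and 17 to 287 in BMTGMP, against ranks 2837 to 6281 in wtGMP. In LTearly replicate 3 it took 1.26% of the counts kept on named genes. Its log2 fold change over wtGMP was 7.67 ± 0.70 in LTearly (SE, adjusted p = 2.48e-05), 5.78 ± 0.66 in LTlate (adjusted p = 0.000222) and 4.96 ± 0.64 in BMTGMP (adjusted p = 0.000758). On a linear scale these are 204-fold, 54.8-fold and 31.2-fold. The BMTGMP value rests in part on replicate 2, without which the log2 fold change was 4.01 and the gene was still called.

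S100a8, the smaller calprotectin subunit, moved with S100a9 at a lower level. It stood at 524, 929.7, 1301 and 467 CPM in LTearly, at 212, 195 and 155 CPM in LTlate, at 36.3, 274 and 86.5 CPM in BMTGMP, and at 5.02, 2.02, 12.8 and 14.7 CPM in wtGMP. As for S100a9, each MLL-AF9 group lay above wtGMP and LTearly above the rest, while BMTGMP replicate 2 stood above every LTlate library and the other BMTGMP libraries below them. Its log2 fold change over wtGMP was 6.51 ± 0.82 in LTearly (adjusted p = 0.000231), 4.44 ± 0.78 in LTlate (adjusted p = 0.00387) and 3.88 ± 0.77 in BMTGMP (adjusted p = 0.0115). Without BMTGMP replicate 2 the BMTGMP log2 fold change was 2.73 and the gene was still called, whereas the call was lost when only BMTGMP and wtGMP entered the fit (adjusted p = 0.0510).

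The ratio of S100a9 counts to S100a8 counts was set out for each library. It ran from 9.66 to 14.1 in LTearly, 11.2 to 14.1 in LTlate and 9.73 to 15.1 in BMTGMP, against 3.59 to 16.2 in wtGMP, where S100a8 had 5 to 59 counts per library. The mean log2 ratio was 3.51 ± 0.23 in LTearly, 3.62 ± 0.18 in LTlate, 3.53 ± 0.34 in BMTGMP and 2.56 ± 0.99 in wtGMP (SD). These ratios are a description, since a two-sided exact permutation test adjusted over the 6 group comparisons could not have given a p under 0.0686 at these group sizes. S100a9 made up 85.3% to 87.7% of the counts of the 8 genes in LTearly, 70.8% to 73.0% in LTlate and 60.4% to 79.4% in BMTGMP, against 6.69% to 19.8% in wtGMP, where S100a11 had the highest count of the 8 genes in each library.

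The sequences before the starts of the calprotectin genes, which moved together, are shown with matches to 4 short motifs in capitals, each searched on both strands. The motif of the C/EBP family was spelled TTGCNNAA. That of the AP-1 factors was TGANTCA, with any base at its middle. For the factor PU.1 the letters searched were GAGGAAG. The TATA box was taken as the letters TATAAA. They are the 250 bases upstream of the RefSeq start in GRCm38.p6, a later build than the mm9 of the read counts, at chr3:90668821-90669070 on the plus strand for S100a8 and at chr3:90695722-90695971 on the minus strand for S100a9. Of the 8 genes, 7 have such a window in the RefSeq table.
S100a8: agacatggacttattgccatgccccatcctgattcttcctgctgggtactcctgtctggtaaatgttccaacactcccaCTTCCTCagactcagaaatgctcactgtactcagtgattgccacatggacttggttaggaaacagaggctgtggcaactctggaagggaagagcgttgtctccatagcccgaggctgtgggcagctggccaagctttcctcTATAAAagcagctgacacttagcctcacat
S100a9: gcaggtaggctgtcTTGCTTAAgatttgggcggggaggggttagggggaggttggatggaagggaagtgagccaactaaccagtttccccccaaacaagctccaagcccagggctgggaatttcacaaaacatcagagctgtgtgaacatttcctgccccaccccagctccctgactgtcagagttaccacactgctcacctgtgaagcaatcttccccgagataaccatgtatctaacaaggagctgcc
S100a8 holds the reverse complement of the PU.1 motif, CTTCCTC, beginning 171 bases upstream, and a TATA box beginning 30 bases upstream. S100a9 holds 1 C/EBP match, TTGCTTAA, beginning 236 bases upstream, and no match to the other 3 motifs. Of 32851 windows of this length, 10.6% hold the PU.1 motif, 12.4% the TATA box, 9.56% the C/EBP motif and 6.75% the AP-1 motif on either strand. A match is a string of letters and does not show binding.

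S100a4 and S100a6 separated the LT groups from both GMP groups. S100a4 stood at 54.4, 97.7, 92.7 and 36.1 CPM in LTearly, at 128, 135 and 80.0 CPM in LTlate, at 3.36, 9.54 and 3.07 CPM in BMTGMP, and at 3.01, 0, 12.8 and 17.5 CPM in wtGMP. S100a6 stood at 76.1, 40.4, 135 and 31.5 CPM in LTearly, at 134, 87.4 and 63.5 CPM in LTlate, at 1.12, 7.32 and 4.83 CPM in BMTGMP, and at 3.15, 5.26, 0 and 0.94 CPM in wtGMP. Every LTearly and LTlate library lay above every BMTGMP and wtGMP library at both genes, the LT groups overlapped each other, and BMTGMP overlapped wtGMP. The 0 of S100a4 in wtGMP replicate 2 allows up to 1.21 CPM and the 0 of S100a6 in wtGMP replicate 3 up to 0.65 CPM, taking 3 counts as the limit, which covers counting error only.

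S100a4 was higher than in wtGMP by a log2 fold change of 3.04 ± 0.80 in LTearly (adjusted p = 0.0192) and 3.78 ± 0.84 in LTlate (adjusted p = 0.0130). Its difference in BMTGMP was -0.68 ± 0.86 (adjusted p = 0.770). S100a6 was higher by 4.97 ± 0.87 in LTearly (adjusted p = 0.00160) and 5.45 ± 0.90 in LTlate (adjusted p = 0.00194), with 0.93 ± 0.92 in BMTGMP (adjusted p = 0.673). In wtGMP these fold changes rest on 136 counts of S100a4 and 38 of S100a6 over the 4 libraries. Without wtGMP replicate 4 the LTearly log2 fold change of S100a4 was 3.63 (adjusted p = 0.0168). The LTlate call of S100a4 was lost without LTlate replicate 2 (adjusted p = 0.0506).

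S100a4 and S100a6 lie close together on chromosome 3, with S100a5 between them, and both were higher in the LT groups than in wtGMP. Their upstream sequences are shown in the same way as those of the calprotectin genes, from chr3:90603520-90603769 for S100a4 and chr3:90612644-90612893 for S100a6, both on the plus strand.
S100a4: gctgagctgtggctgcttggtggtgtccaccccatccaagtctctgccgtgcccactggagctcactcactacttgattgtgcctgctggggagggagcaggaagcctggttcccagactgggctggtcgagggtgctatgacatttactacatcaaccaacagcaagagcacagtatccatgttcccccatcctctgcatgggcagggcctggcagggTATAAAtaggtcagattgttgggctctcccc
S100a6: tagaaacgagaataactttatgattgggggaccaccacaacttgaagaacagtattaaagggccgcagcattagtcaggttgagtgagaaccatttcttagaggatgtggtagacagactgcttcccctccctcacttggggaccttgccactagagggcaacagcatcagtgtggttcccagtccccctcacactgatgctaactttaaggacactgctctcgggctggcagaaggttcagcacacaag
S100a4 holds a TATA box beginning 31 bases upstream and no match to the other 3 motifs. S100a6 holds no match to any of the 4, which says only that these letters are not in this window. Among the windows not printed, S100a11 has 2 AP-1 matches, beginning 136 and 38 bases upstream, and neither S100a1 nor S100a13 has a match.

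S100a10, the partner of annexin A2 at the plasma membrane, was low in BMTGMP. It stood at 137, 64.2, 93.5 and 84.6 CPM in LTearly, at 112, 132 and 64.7 CPM in LTlate, at 38.5, 16.5 and 19.5 CPM in BMTGMP, and at 63.2, 53.9, 69.5 and 69.2 CPM in wtGMP. Every BMTGMP library lay below every library of the other 3 groups, and those 3 groups overlapped one another. S100a10 fell in BMTGMP by 1.39 on the log2 scale relative to wtGMP (SE 0.31, adjusted p = 0.00445). LTearly and LTlate differed from wtGMP by 0.55 ± 0.28 (adjusted p = 0.164) and 0.70 ± 0.30 (adjusted p = 0.143). The LTlate difference was called when only LTlate and wtGMP entered the fit (adjusted p = 0.0290).

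S100a11, a partner of annexin A1, was higher in every MLL-AF9 group by a similar amount. It stood at 287, 238, 447 and 236 CPM in LTearly, at 491, 282 and 264 CPM in LTlate, at 236, 324 and 306 CPM in BMTGMP, and at 148, 134, 101 and 133 CPM in wtGMP. All 10 MLL-AF9 libraries of the 3 groups lay above all 4 wtGMP libraries, and the 3 groups overlapped one another. Its log2 fold change was 1.21 ± 0.22 in LTearly (adjusted p = 0.000180), 1.45 ± 0.23 in LTlate (adjusted p = 8.74e-05) and 1.13 ± 0.23 in BMTGMP (adjusted p = 0.00193). S100a11 is the 1 member with values that are not whole numbers, in 13 of 15 libraries, which shows that some of its reads also matched elsewhere and were divided, so its level is less certain than the others.

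S100a1, known for calcium handling in heart muscle, and S100a13, which takes part in the export of FGF1, were not called in any of the 6 comparisons. S100a1 ran from 28.6 to 43.4 CPM in LTearly, 18.9 to 34.1 in LTlate and 25.2 to 42.5 in BMTGMP, against 15.4 to 38.7 in wtGMP. S100a13 ran from 21.0 to 31.95 CPM in LTearly, 23.6 to 34.6 in LTlate and 13.3 to 25.9 in BMTGMP, against 11.7 to 29.9 in wtGMP. All 4 groups overlapped at both genes. The largest log2 difference from wtGMP was 0.26 ± 0.33 for S100a1, in LTearly, and 0.50 ± 0.38 for S100a13, in LTlate. The spans of the 2 genes overlap on opposite strands in the RefSeq gene table. Whether the counting used strand is not given in the sources used here, so it is not known whether they shared reads. All values of both genes were whole numbers.

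**Figure D2:**
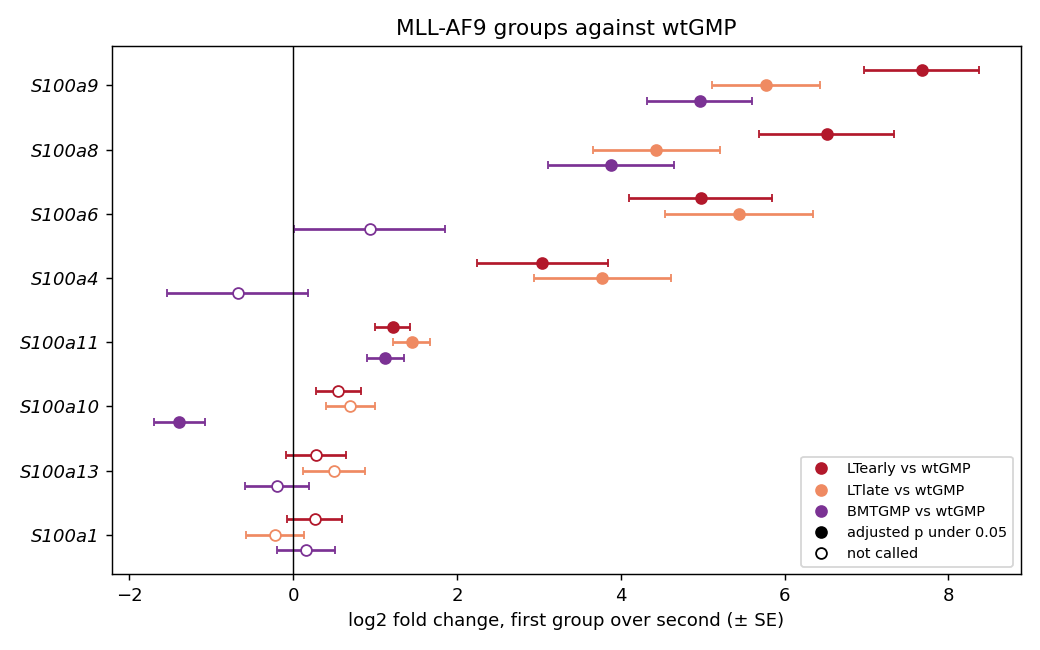
Log2 fold change of each S100 gene in LTearly, LTlate and BMTGMP over wtGMP, with bars of 1 SE. Filled points have an adjusted p under 0.05 and open points do not. S100a9 reaches 7.67 in LTearly, S100a4 and S100a6 are filled in the LT groups only, and S100a10 is filled on the negative side in BMTGMP.

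The MLL-AF9 groups were then compared with each other. Between LTearly and LTlate edgeR called 0 of the 8 genes, with 2 of 8 at an unadjusted p under 0.05 and 1 of 8 called by DESeq2, where edgeR called 0.117% of all genes higher, 0.0894% lower and 0.206% in either direction. The 2 were S100a8, with a log2 fold change of LTearly over LTlate of 2.08 ± 0.72 (adjusted p = 0.348), and S100a9, with 1.90 ± 0.60 (adjusted p = 0.297). Their groups did not overlap, as was so for 9.94% of all genes tested. DESeq2 called S100a9 (adjusted p = 0.0423), and both genes were called when only LTearly and LTlate entered the fit (adjusted p = 0.0426 for S100a8 and 0.0208 for S100a9). Over all genes DESeq2 called 256, and the fit of LTearly and LTlate alone called 26. S100a4 (-0.73 ± 0.76) and S100a6 (-0.47 ± 0.73) overlapped between LTearly and LTlate.

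Of LTearly over BMTGMP, 4 of the 8 genes were called higher and 0 lower, where 3.4% of all genes were called higher, 2.81% lower and 6.21% in either direction. Groups did not overlap at 5 of the 8, against 15.9% of all genes. S100a4 was higher by 3.72 ± 0.91 (adjusted p = 0.0362), S100a6 by 4.04 ± 0.89 (adjusted p = 0.0214), S100a9 by 2.71 ± 0.62 (adjusted p = 0.0298) and S100a10 by 1.94 ± 0.32 (adjusted p = 0.000362). S100a8 differed by 2.63 ± 0.74 without overlap of the groups, and it was not called by edgeR (adjusted p = 0.0676) but by DESeq2 (adjusted p = 0.00319). The S100a10 call held without any 1 library (adjusted p up to 0.00396). The S100a4 call was lost on leaving out any library other than LTearly replicate 4 (adjusted p up to 0.150), the S100a6 call without BMTGMP replicate 1 or 4 (0.0723 and 0.0971), and the S100a9 call without LTearly replicate 2 or 3 or BMTGMP replicate 1 or 4 (0.0562 to 0.114) and with only LTearly and BMTGMP in the fit (0.0510). Without BMTGMP replicate 2 the log2 fold change was 4.43 for S100a4, 4.70 for S100a6 and 3.62 for S100a9.

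Of LTlate over BMTGMP, 3 of the 8 genes were called higher and 0 lower, where 1.52% of all genes were called higher, 0.461% lower and 1.98% in either direction. Groups did not overlap at the same 3, against 20.7% of all genes. They were S100a4 by 4.45 ± 0.96 (adjusted p = 0.0396), S100a6 by 4.51 ± 0.93 (adjusted p = 0.0288) and S100a10 by 2.09 ± 0.33 (adjusted p = 0.000435). S100a8 (0.55 ± 0.72, adjusted p = 0.920) and S100a9 (0.82 ± 0.61, adjusted p = 0.718) were not called. Leaving out any 1 of the 6 libraries ended the calls of S100a4 (log2 fold change 4.20 to 5.22, adjusted p = 0.0684 to 0.215) and of S100a6 (4.03 to 5.23, adjusted p = 0.0584 to 0.167). The S100a10 call held in all 6 (adjusted p up to 0.00328).

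**Figure D3:**
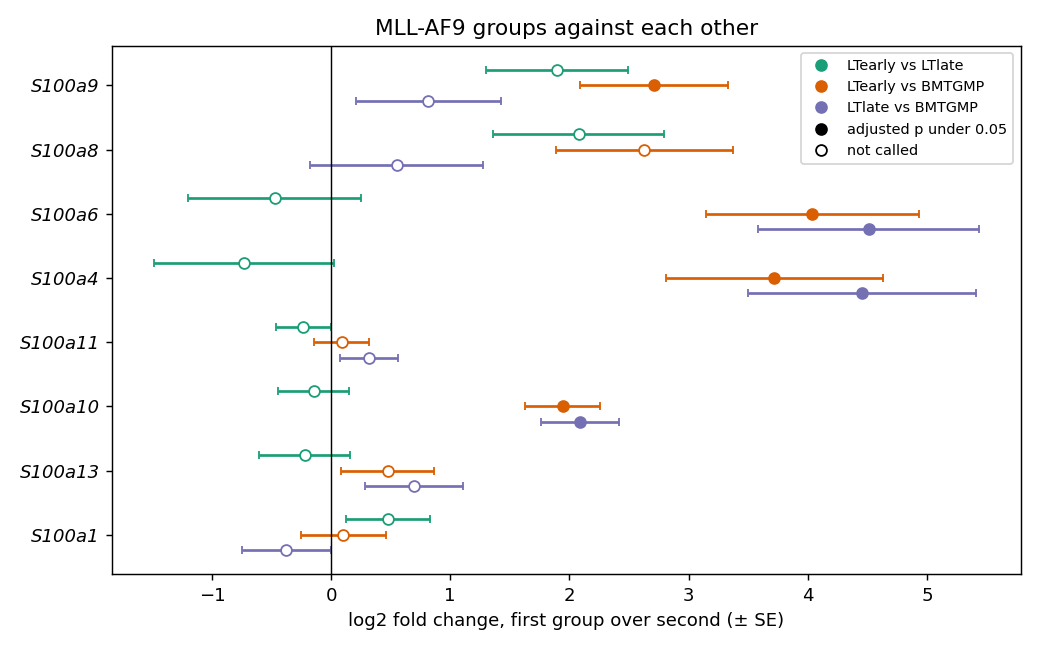
Log2 fold change of each S100 gene between MLL-AF9 groups, the first-named group over the second, with bars of 1 SE. Filled points have an adjusted p under 0.05. S100a4, S100a6 and S100a10 are filled in both comparisons with BMTGMP, S100a9 is filled in LTearly over BMTGMP, and no point is filled in LTearly over LTlate.

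Levels of different genes were compared as CPM per kilobase of transcript. In LTearly the order was S100a9 (17085 ± 6126, SD), S100a8 (1658 ± 801), S100a11 (591 ± 194), S100a4 (141 ± 60.0), S100a10 (138 ± 44.6), S100a6 (96.9 ± 64.5), S100a1 (51.5 ± 9.25) and S100a13 (35.6 ± 6.49). S100a4, S100a10 and S100a6 lay within 1 SD of each other there. In LTlate the order began with S100a9 (4495 ± 1142), S100a11 (676 ± 247) and S100a8 (385 ± 60.2). BMTGMP began with S100a9 (2650.0 ± 2181) and S100a11 (566 ± 90.8), followed by S100a8 (272 ± 258), with S100a6 last (6.05 ± 4.27). In wtGMP S100a11 came first (253 ± 39.2) and S100a10 next (93.4 ± 10.7), within 1 SD of S100a9 (83.5 ± 44.0), while S100a8 (17.7 ± 12.5), S100a4 (16.7 ± 16.4) and S100a6 (3.20 ± 3.22) stood at the bottom. S100a11 was thus above S100a8 in 3 of the 4 groups and below it in LTearly.

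The genes whose profile lay nearest to each member were found by the root mean square difference of log2 CPM, each gene centred on its own mean, over 14 libraries and 9788 candidate genes. For S100a9 they were Ltf (lactoferrin, a granule protein of maturing neutrophils, 0.40), the neutrophil surface gene Cd177 (0.57) and the integrin gene Itgb2l (0.62), where S100a9 itself varied with an SD of 3.10. S100a8 lay at 0.67 from S100a9, and its own nearest genes outside the family were Chil3 (0.81), Orm1 (0.85) and Plbd1 (0.85). S100a6 had no neighbour as close: Retnlg (1.05), Padi4 (1.10) and Hmox1 (1.16), against an SD of 2.76. For S100a4 they were Fgd6 (1.13), Gngt2 (1.21) and Myof (1.24), and S100a6 lay at 2.15 from S100a4. Both lay nearer to S100a8, at 1.72 for S100a4 and 1.97 for S100a6, and S100a6 lay at 1.93 from S100a9. These distances rest in part on low counts in wtGMP, where a 0 weighs heavily on the log scale. In wtGMP replicates 2, 3 and 4 S100a4 had 0, 59 and 56 counts, S100a6 13, 0 and 3, and S100a8 5, 59 and 47. The genes nearest to S100a10 were Mllt6 (0.39), the intermediate filament gene Vim (0.41) and Lmtk2 (0.43), against an SD of 0.87. Tle3 (0.27) and Csf2ra (0.27) were among the 3 nearest to S100a11. S100a1 was nearest to Xbp1 (0.25), Selenok (0.28) and Sacm1l (0.29), and S100a13 to Ambra1 (0.28), Rap1a (0.29) and Stim2 (0.29). A flat gene finds near neighbours among other flat genes, and the libraries of a group share their group means, so these distances describe likeness only.

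**Figure D4:**
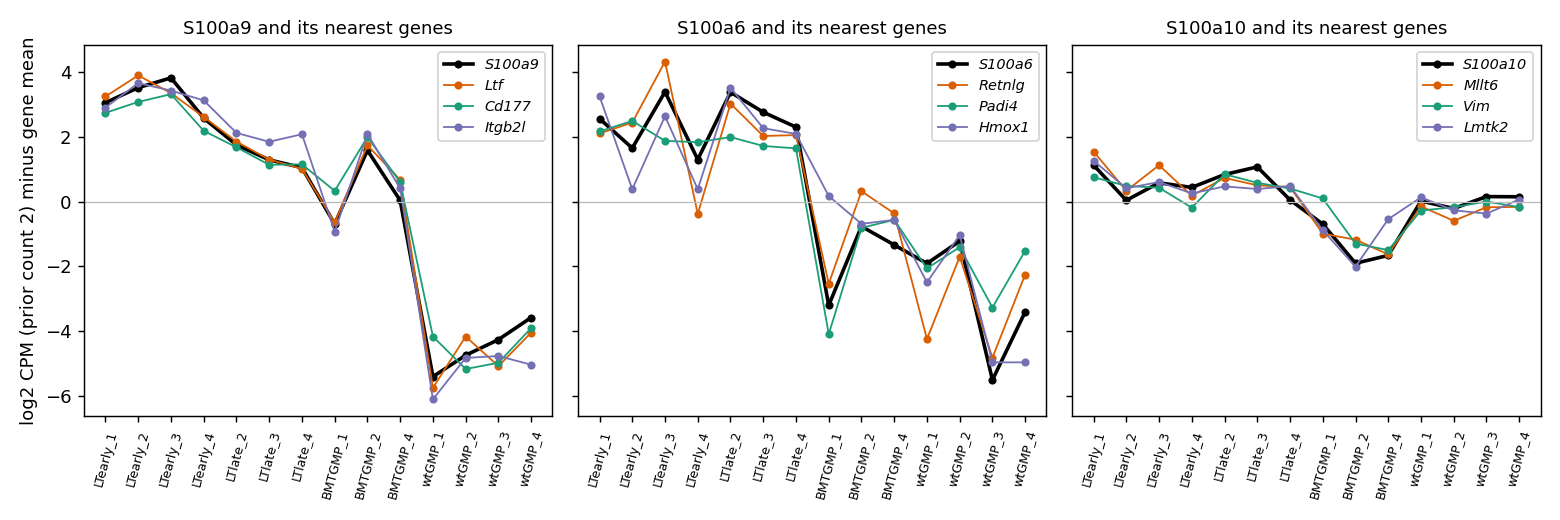
Profiles of S100a9, S100a6 and S100a10 (black) and of the 3 genes nearest to each over the 14 grouped libraries, as log2 CPM with a prior count of 2 minus the mean of the gene. Lines join libraries for the eye and imply no order within a group. S100a9 and Ltf run together through BMTGMP replicate 2, and S100a10 is low in BMTGMP.

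S100A8 and S100A9 stand out as products of maturing neutrophils, so 18 late neutrophil genes with a row in the table were set beside them. In LTearly 18 of the 18 rose against wtGMP, in LTlate 16 and in BMTGMP 12, and 0 were called lower. Among those that did not rise in LTlate and BMTGMP was Csf3r. It averaged 165 CPM in LTearly, 54.7 in LTlate and 66.8 in BMTGMP, against 83.8 in wtGMP. The granule gene Ngp was higher by 8.21 ± 0.66 on the log2 scale in LTearly, 7.15 ± 0.64 in LTlate and 6.05 ± 0.61 in BMTGMP, and Itgam by 4.54 ± 0.27, 4.50 ± 0.27 and 3.05 ± 0.26. Of the 18 genes, 0 to 1 were at 0 in an MLL-AF9 library and 2 to 4 in a wtGMP library, Lrg1 in all 4 of these. Their summed level was 14968 to 20894 CPM in LTearly, 5091 to 11709 in LTlate and 1762 to 7485 in BMTGMP, against 233 to 314 in wtGMP. The highest BMTGMP sum belonged to replicate 2, the library with the highest S100a8 and S100a9 of its group. S100a9 per 100 CPM of these genes was 35.4 to 62.3 in LTearly, 25.5 to 36.1 in LTlate and 29.8 to 35.6 in BMTGMP, against 8.86 to 26.0 in wtGMP. The part of cell maturation in the S100a8 and S100a9 differences was not tested.

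**Figure D5:**
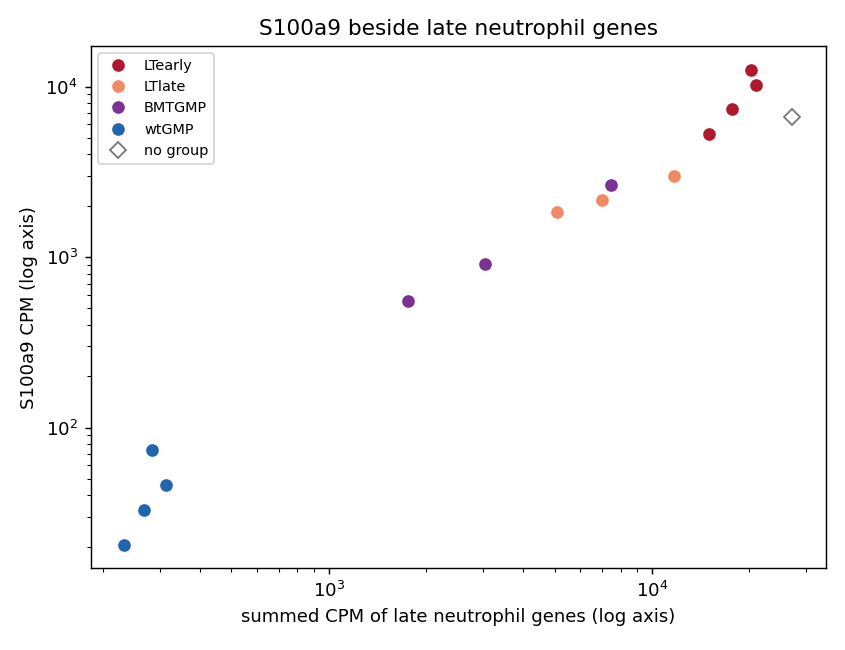
S100a9 CPM against the summed CPM of 18 late neutrophil genes in each library, both on log axes, with the library without a group as an open diamond. The wtGMP libraries sit at 233 to 314 summed CPM with S100a9 at 20.6 to 73.9 CPM, and LTearly sits at 14968 to 20894 with S100a9 at 5306 to 12572 CPM.

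Other cell types were read in the same way. Of 13 monocyte and macrophage genes tested, 6 rose in LTearly, 6 in LTlate and 3 in BMTGMP, with summed levels of 7974 to 10310.1 CPM in LTearly, 4808 to 7318 in LTlate and 2508 to 4056 in BMTGMP, against 2481 to 2817 in wtGMP. Lyz2, which encodes lysozyme, Cybb, an oxidase subunit, and the macrophage gene Adgre1 were higher in all 3 groups and were the 3 called in BMTGMP. The median log2 change of the 13 was 2.88 in LTearly, 2.23 in LTlate and -0.01 in BMTGMP. In BMTGMP 3 of the 13 lay wholly below wtGMP without being called: F13a1 averaged 687 CPM, against 1339.5 in wtGMP, Ccr2 99.6, against 190.1, and Csf1r, the receptor of macrophage colony-stimulating factor, 82.0, against 184. In LTlate 10 of the 13 lay wholly above wtGMP and 1, F13a1, wholly below, at a mean of 903 CPM. F13a1 averaged 967 CPM in LTearly. Ly6c2 averaged 90.6 CPM in LTearly and 97.5 in LTlate, against 138 in wtGMP. Neither gene was called lower. Lyz2 and Cybb averaged 5115 and 1976 CPM in LTearly and 3494 and 1131 in LTlate, most of the sums of these groups. Stromal and endothelial markers summed to 117 to 173 CPM in LTearly, 116 to 367 in LTlate and 93.7 to 196 in BMTGMP, against 27.1 to 66.7 in wtGMP. Vcam1 rose in each group and accounted for most of this, at 69.2 to 151 CPM in LTearly, 82.9 to 315 in LTlate and 36.7 to 164 in BMTGMP, against 4.05 to 26.5 in wtGMP. The other 14 markers summed to 22.3 to 66.0 CPM in LTearly, 33.2 to 51.7 in LTlate and 31.5 to 57.1 in BMTGMP, against 23.1 to 40.2 in wtGMP, with overlap of every group and wtGMP. Of 13 of these markers tested, Vcam1 included, 2 rose in LTearly, 1 in LTlate and 2 in BMTGMP, and 0 fell. Their median log2 change was 1.58 in LTearly, 1.72 in LTlate and 1.14 in BMTGMP. Cxcl12 averaged 5.69 CPM in LTearly, 3.04 in LTlate and 8.95 in BMTGMP, against 0.18 in wtGMP. The collagen gene Col1a2 averaged 5.20 CPM in LTearly, 2.45 in LTlate and 4.34 in BMTGMP, against 10.4 in wtGMP, and was not called. Dendritic cell markers summed to 48.7 to 75.7 CPM in LTearly, 37.6 to 75.4 in LTlate and 13.7 to 26.2 in BMTGMP, against 21.2 to 29.6 in wtGMP. Eosinophil, basophil and mast cell markers summed to 18.9 to 49.9 CPM in LTearly, 93.1 to 342 in LTlate and 5.36 to 12.1 in BMTGMP, against 163 to 283 in wtGMP. Prg2 made up most of the LTlate sum, at a mean of 191 CPM, against 107 in wtGMP. Prg3 (17.5, against 10.4) and Cpa3 (21.4, against 14.9) also averaged higher in LTlate, and Epx (6.95, against 33.6) and Mcpt8 (8.64, against 22.2) lower. Of 7 tested, 2 fell in LTearly, 1 in LTlate and 4 in BMTGMP, and 0 rose. B cell, T and NK cell, erythroid and megakaryocyte markers each summed to at most 26.2 CPM in any grouped library. S100a4 and S100a6 are also expressed by macrophages, stromal and T cells, and the part of such cells in their LT levels was not tested.

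Receptors of S100 proteins moved in both directions against wtGMP, as did genes at large. Of 11 tested, 3 rose and 2 fell in LTearly, 2 rose and 1 fell in LTlate, and 1 rose and 1 fell in BMTGMP. Of all genes tested, 11.1% rose and 8.93% fell in LTearly, 7.53% and 3.25% in LTlate, and 4.41% and 2.17% in BMTGMP. These shares are also the background of the partner, transcription factor, gate and cell type lists. Cd33, an S100A9 receptor on human myeloid cells, rose in all 3 groups, to a mean of 388 CPM in LTearly, 397 in LTlate and 220.0 in BMTGMP, against 6.86 in wtGMP. Cd69 fell in LTearly by 1.25 and in LTlate by 1.88 on the log2 scale (adjusted p = 0.00518 and 0.000523), and Bsg, which encodes basigin, fell in LTearly by 0.52 (adjusted p = 0.0181). The TLR4 co-receptor gene Cd14 rose in LTearly (3.99 ± 0.59, adjusted p = 6.07e-05) and LTlate (2.23 ± 0.58, adjusted p = 0.0153). Tlr4 itself rose in LTearly (2.31 ± 0.72, adjusted p = 0.0350), where it ran from 6.33 to 113.9 CPM and overlapped wtGMP. Ager, which encodes RAGE, reached at most 10.6 CPM in a grouped library and was not called against wtGMP. Alcam, an adhesion molecule reported to bind S100A8 and S100A9 in human cells, fell in BMTGMP by 3.82 on the log2 scale (adjusted p = 1.90e-06).

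Of 19 annexins and other S100 binding partners tested, 8 rose and 3 fell in LTearly, 7 rose and 2 fell in LTlate, and 1 rose in BMTGMP. Anxa2, the partner of S100A10, averaged 381 ± 112 CPM in LTearly, 245 ± 66.8 in LTlate and 127 ± 67.6 in BMTGMP, against 80.0 ± 19.1 in wtGMP (SD). It rose in LTearly (2.24 ± 0.36, adjusted p = 0.000470) and LTlate (1.64 ± 0.37, adjusted p = 0.0102) and was not called in BMTGMP (0.65 ± 0.37, adjusted p = 0.358), where S100a10 fell. Anxa1, the partner of S100A11, rose in LTearly (2.20 ± 0.23, adjusted p = 4.27e-07) and LTlate (1.78 ± 0.23, adjusted p = 1.91e-05), with 0.06 ± 0.23 in BMTGMP (adjusted p = 0.949), although S100a11 rose in all 3. Myh9, the myosin heavy chain that S100A4 binds, rose by 1.37 ± 0.14 in LTearly, 1.46 ± 0.15 in LTlate and 0.59 ± 0.15 in BMTGMP (adjusted p = 4.59e-08, 7.99e-08 and 0.0113). Plaur, the urokinase receptor gene, rose in LTearly by 2.57 ± 0.33 (adjusted p = 3.46e-06). Cacybp, whose product binds S100A6, fell in LTearly by 1.41 on the log2 scale (adjusted p = 5.09e-06) and in LTlate to 0.499 of the wtGMP level by fold (adjusted p = 0.00142), the groups in which S100a6 rose.

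Of 14 transcription factors linked to the calprotectin genes, 6 rose and 1 fell in LTearly, 3 rose in LTlate, and 3 rose and 1 fell in BMTGMP. Cebpb and Cebpe, C/EBP factors of later myeloid maturation, rose in all 3 groups. Cebpb averaged 160 ± 85.6 CPM in LTearly, 83.9 ± 22.9 in LTlate and 82.9 ± 0.40 in BMTGMP, against 34.8 ± 5.78 in wtGMP. Stat3, a factor of cytokine signalling, rose in LTearly (1.17 ± 0.23, adjusted p = 0.000393) and LTlate (0.73 ± 0.24, adjusted p = 0.0495). Cebpa, the C/EBP factor of granulocyte commitment, fell in LTearly by 1.26 on the log2 scale (adjusted p = 0.00233). Spi1, which encodes PU.1, rose in LTearly (0.91 ± 0.22, adjusted p = 0.00299) with overlap of the groups. In BMTGMP Gfi1 rose (2.05 ± 0.32, adjusted p = 0.000334) and Irf8 fell by 2.33 (adjusted p = 0.0120).

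The other S100 genes were near silent. Of 11 further genes named for S100, 10 did not pass the low-count filter and none of those 10 exceeded 7.99 CPM in a library. S100pbp, which encodes a nuclear binding protein and no S100 protein, passed it and fell in BMTGMP by 2.30 on the log2 scale (adjusted p = 0.0379). On chromosome 3 the members lie in 2 blocks in the RefSeq gene order. S100a1, S100a13, S100a4, S100a6, S100a8 and S100a9 lie in that order in the first block, with low S100 genes such as S100a3, S100a5 and S100a14 among them, S100a7l2 closes it, and S100a11 and S100a10 follow after 77 other genes. Expressed and near-silent genes thus alternate within the first block.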

How the data were processed

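Per the labels, RNA of sorted bone marrow cells was made into libraries with a low-input kit and sequenced. The deposited table holds 28847 RefSeq transcripts. Its unit is an expected count on mm9, per the file headers with up to 100 hits per read: 13.7% of values are not whole (tolerance 1e-06). The submitters' processing notes name Bowtie 0.9.9.1. Of the transcripts, 26092 matched a symbol, and the rest held 3.51% to 4.16% of counts and stayed out. Of several transcripts of a gene the one highest on average was kept, and values were rounded. The counts of the other transcripts also stayed out, so that LTearly replicate 1 kept 4006231 of 5743519 counts. Each S100 member has 1 row. There is 1 further column with no matching sample, which was left aside. Title (LTearly) and column name (LTlate) disagree for 1 library, which entered no comparison. Of 105 library pairs, 0 were identical.

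The other 14 libraries entered 1 fit: edgeR 4.0.16 (R 4.3.3), TMM, filterByExpr (14542 genes), robust quasi-likelihood test (two-sided), calls at 0.05 after Benjamini-Hochberg adjustment, common biological coefficient of variation 0.748. The SE of an edgeR log2 fold change was derived from that test, as its absolute value divided by the square root of the F statistic. It is not a separately fitted standard error. Exact permutation tests used scipy 1.17.1. Alternatives were DESeq2 1.42.0, median-ratio scaling, other filters, the replicate number as a block, only the groups compared, summed transcripts, equal depth, rows without a symbol kept and each library left out. Lengths came from GENCODE transcripts. All 8 members are named. From the lists of receptors, partners, transcription factors and cell markers, called genes are named, those with the smallest p first, and for each member the 3 nearest genes, of which 1 is not reported here. Ager, and Anxa1 and Anxa2 in BMTGMP, are given for their known roles although not called. Kit, Mpo, Itgam, Cd34, Fcgr2b, Fcgr3, F13a1, Ly6c2, Ccr2, Csf1r and Col1a2 were chosen after their values were seen. So were Cxcl12, Csf3r, Prg2, Prg3, Cpa3, Epx and Mcpt8. Members and lists were chosen with earlier results of these data known.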

Additional observations from a re-analysis of the deposited data

Results flagged for a closer look

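Changes relative to wtGMP differed between MLL-AF9 groups at 4 genes, by the direct comparison of the groups in edgeR, in which the wtGMP libraries cancel. The log2 fold change of LTearly over BMTGMP was 3.72 for S100a4, 4.04 for S100a6, 2.71 for S100a9 and 1.94 for S100a10. That of LTlate over BMTGMP was 4.45 for S100a4, 4.51 for S100a6 and 2.09 for S100a10. Of these, the S100a10 differences held without any 1 library.

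The library whose title says LTearly and whose column says LTlate is in no group and in none of the comparisons. Its S100 levels lay above every wtGMP library at 5 genes. S100a9 stood at 6643 CPM (rank 3 among all genes), S100a8 at 735 CPM, S100a11 at 444 CPM, S100a6 at 55.3 CPM and S100a4 at 54.4 CPM. S100a8 and S100a9 lay within the range of the LTearly libraries and above every LTlate library, and the late neutrophil genes summed to 27104 CPM, above every grouped library. In LTearly and wtGMP, the groups of 4 libraries, no S100 gene had a library standing apart from the others, in 16 tests. LTlate and BMTGMP, with 3 libraries each, were not tested for this.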

How the results depend on the processing

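The count of S100 genes called against wtGMP stayed at 5 in LTearly under every alternative run, at 4 to 6 in LTlate and at 3 or 4 in BMTGMP. Over all genes the same runs called 2339 to 3610 in LTearly, 921 to 2483 in LTlate and 709 to 1424 in BMTGMP. Between LTearly and LTlate the count of S100 genes was 0, but 1 by DESeq2 and 2 with only the groups compared in the fit. Beside these stood 30, 256 and 26 called over all genes. Between LTearly and BMTGMP it was 4, with a range of 1 to 4 on leaving out each library in turn. Between LTlate and BMTGMP it was 3, and 1 on leaving out each of the 6 libraries in turn. With the replicate block these last 2 counts were 2 and 1, and S100a10 was called in both, while S100a4 (adjusted p = 0.0803 and 0.124) and S100a6 (0.0567 and 0.0755) were not. The deviations from group means of 18 same-numbered pairs of libraries correlated between -0.156 and 0.114, 1 of them over 0.1. Those of 55 other pairs correlated over a similar range, between -0.159 and 0.139. With 3 or 4 libraries per group this cannot show whether libraries share a source, and the title codes were not examined in this way. Without a low-count filter S100a4 was not called in LTearly over BMTGMP (adjusted p = 0.0537) or LTlate over BMTGMP (0.0541). At equal depth S100a8 was called in LTearly over BMTGMP (0.0433). No called direction reversed.

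Counts over all genes moved more. LTearly against LTlate gave 30 genes, but 256 by DESeq2, 52 with a filter of 1 CPM in 3 libraries, 141 without a filter and 4 to 209 on leaving out a library. LTearly against BMTGMP gave 903, but 1493 by DESeq2, 407 with only the groups compared and 583 to 1288 on leaving out a library. LTlate against BMTGMP gave 288, but 569 by DESeq2, 454 with only the groups compared and 155 to 308 on leaving out a library. LTlate against wtGMP gave 1568, but 2483 with only the groups compared and 921 to 1332 on leaving out a library. The median log2 change of all genes in LTearly over wtGMP shifted by 0.10 without a filter, -0.14 at equal depth, -0.17 with only the groups compared and -0.11 without LTearly replicate 1. Depth limits S100a4 and S100a6 in wtGMP, with 136 and 38 counts over 4 libraries.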
